A study of Sus scrofa with 11 samples.

Results

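DGAT2 and an unplaced DGAT2-like gene, LOC110259135, were followed in day 10 skin wounds together with the related acyltransferase genes MOGAT1, MOGAT2 and AWAT2. These 5 genes were taken by name from a table of 30376 genes, and they were chosen by their FPKM difference between diabetic and non-diabetic wounds, so their own values are a description and carry no test. RNA was sequenced from 7 wounds of a diabetic and 4 wounds of a non-diabetic female Yucatan minipig, 1 library per wound, with 1 minipig per group. The diabetic minipig was 6 months old when streptozotocin, a toxin of the insulin-producing beta cells, was infused into a vein. It was wounded 60 days later and received daily insulin until 1 week before wounding. The age of the non-diabetic minipig is not given in the sources used here. All wounds were full-thickness, made with a 2 cm punch and excised on day 10. The wounds of a group are samples of a single animal, so the spread between them is the spread within that animal, and diabetes and the individual minipig cannot be told apart. Library names carry the letter L or R, with 3 L and 4 R wounds in the diabetic and 2 of each in the non-diabetic minipig. The names also have an ending that is the same within a group and differs between the groups, which the labels do not explain. The labels give no batch.

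Triglyceride is the form in which cells store fatty acids, and its last step joins a fatty acid to diacylglycerol. Mammals have a pair of unrelated enzymes for that step, DGAT1 and DGAT2, both in the membrane of the endoplasmic reticulum. DGAT2 also sits on lipid droplets and works largely on fatty acids that the cell has just made, and it is needed for the lipid barrier of the skin. MOGAT1 and MOGAT2 belong to the same protein family and make diacylglycerol from monoacylglycerol, the latter mainly in the intestine. AWAT2 makes wax esters and is known from sebaceous glands. LOC110259135 is annotated only as a DGAT2-like protein-coding gene. Whether it is a second locus or another form of the DGAT2 locus was not tested, and copy is used here for either.

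The copies were almost the same sequence, which bears on how well reads can be assigned to one or the other. On Sscrofa11.1, DGAT2 lies at chr9:10032163-10066082 on the plus strand, and LOC110259135 spans bases 26620 to 60650, also on the plus strand, of an unplaced scaffold of 64878 bases that holds no other annotated gene and 0 unknown bases. Bases 5993 to 64878 of that scaffold, 90.8% of its length, aligned to chr9:10011793-10070286 with 98.15% identity over 59069 columns, introns and flanks included. Bases 2284 to 8839 aligned on the minus strand to chr9:9957371-9963904 (96.6% identity). Bases 63 to 1212 aligned to chr9:10016925-10018164 (90.25% identity). The genes are annotated with 9 and 11 exons, which form 8 blocks each once exons only a few bases apart are joined. Over the blocks, 1420 of 1426 aligned columns (99.58%) were identical, and blocks 1, 2, 4, 6 and 8 did not differ in any aligned base. The 250 bases before the annotated start of LOC110259135 matched chromosome 9 at 249 positions. The 6 differing columns lay in blocks 3, 5 and 7, which are printed here from the reference assembly because they hold every base difference found in the aligned exon columns. Block 1 of LOC110259135 and block 8 of DGAT2 are annotated longer than their counterparts, and those extra bases were outside this comparison. Capitals mark the bases that differ or that only one copy has, and positions are counted from 1 at the 5′ end of the DGAT2 block.
DGAT2 block 3: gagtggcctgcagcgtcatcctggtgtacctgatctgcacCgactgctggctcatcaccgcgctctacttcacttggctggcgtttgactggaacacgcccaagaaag
LOC110259135 block 3: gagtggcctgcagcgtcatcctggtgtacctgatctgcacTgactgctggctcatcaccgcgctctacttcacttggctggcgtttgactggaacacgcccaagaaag
DGAT2 block 5: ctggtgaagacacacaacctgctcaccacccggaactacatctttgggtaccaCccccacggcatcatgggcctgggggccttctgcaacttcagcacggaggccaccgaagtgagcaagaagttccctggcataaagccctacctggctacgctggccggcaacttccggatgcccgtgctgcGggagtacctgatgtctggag
LOC110259135 block 5: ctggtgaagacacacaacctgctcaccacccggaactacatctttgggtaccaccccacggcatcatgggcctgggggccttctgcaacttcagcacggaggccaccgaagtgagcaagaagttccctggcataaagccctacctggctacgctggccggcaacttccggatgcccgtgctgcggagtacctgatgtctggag
DGAT2 block 7: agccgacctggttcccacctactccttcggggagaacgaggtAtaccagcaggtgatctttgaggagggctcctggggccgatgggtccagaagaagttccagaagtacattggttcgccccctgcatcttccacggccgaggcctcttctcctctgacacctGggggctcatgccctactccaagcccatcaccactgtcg
LOC110259135 block 7: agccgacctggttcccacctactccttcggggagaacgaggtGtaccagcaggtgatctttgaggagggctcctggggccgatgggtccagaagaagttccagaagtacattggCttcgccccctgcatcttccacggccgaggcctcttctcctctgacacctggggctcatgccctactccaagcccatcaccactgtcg
The block pairs lie at chr9:10054157-10054264, chr9:10061517-10061721 and chr9:10063273-10063474, and on the scaffold at bases 48789 to 48896, 56139 to 56341 and 57891 to 58092. Block 3 carried the substitution C41T and block 7 the substitution A43G. Block 5 of DGAT2 had 2 bases that LOC110259135 lacks, at positions 54 and 185. In block 7 DGAT2 had 1 base more at position 164, and LOC110259135 had 1 base more, directly after position 114. The map of the exon blocks shows where these columns fall.

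**Figure D1:**
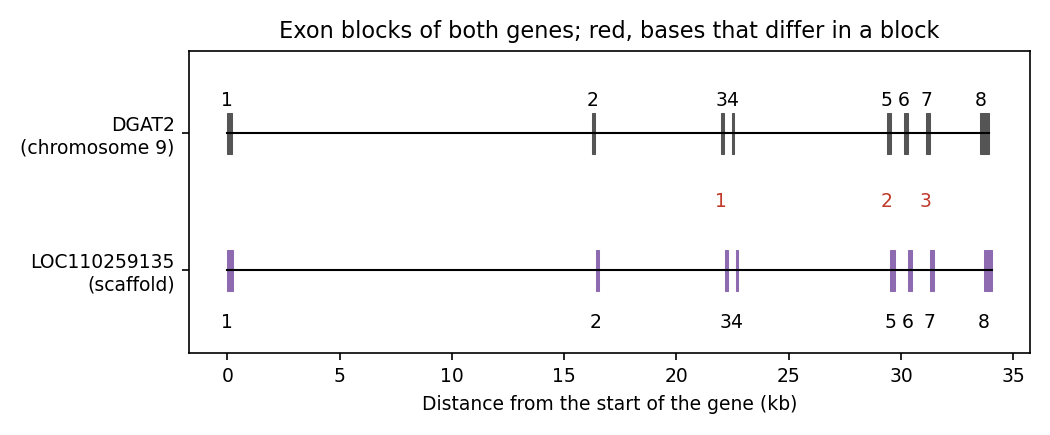
Exon blocks 1 to 8 of DGAT2 (upper line) and LOC110259135 (lower line), to scale, against distance from the start of each gene in kb. Red figures give the number of differing columns in a block, 1 in block 3, 2 in block 5 and 3 in block 7, and blocks without a red figure have 0.

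Long stretches of the transcripts could not be told apart at all. The longest exonic run shared by both was 375 bases. Of all windows of 50 bases, 76.0% in DGAT2 and 76.5% in LOC110259135 occurred in the other gene too. For windows of 100 bases these shares were 58.7% and 59.2%, and for windows of 150 bases 43.4% and 43.8%. The read length used here and the treatment of reads that fit both genes are not given in the sources used here. The split of reads between the copies is therefore given as it was counted, and how the counting shaped it was not tested.

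DGAT2 itself was expressed in every wound at levels that overlapped between the minipigs. Its level ran from 5.02 to 37.4 FPKM in the diabetic wounds with a median of 20.1, FPKM being fragments per kilobase of gene scaled to the size of the library. Replicates 1 and 4 were the lowest of that group, at 5.02 and 11.2 FPKM, and replicate 6 was the highest. The non-diabetic wounds held 17.5, 26.4, 34.0 and 14.1 FPKM in replicates 1 to 4, all inside the diabetic range. Group means were 18.8 ± 10.1 FPKM (SD, n = 7) and 23.0 ± 8.97 FPKM (SD, n = 4). The difference, diabetic minus non-diabetic, was -0.40 ± 0.44 (SE) on the log2(FPKM + 0.5) scale, smaller than its own standard error. These values rest on 265 to 1452 reads per diabetic and 741 to 1747 reads per non-diabetic wound.

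LOC110259135 was at the level of DGAT2 in the non-diabetic minipig and far below it in the diabetic one. In diabetic replicates 1 to 7 it had 0.229, 0.826, 0.956, 0.172, 0.669, 0.832 and 1.03 FPKM. The non-diabetic replicates 1 to 4 had 21.1, 31.7, 36.2 and 16.3 FPKM. The groups did not overlap, as in 2.96% of all genes past the filter that were lower in every diabetic wound, and the lowest non-diabetic wound stood far above the highest diabetic wound. Means were 0.674 ± 0.343 FPKM (SD, n = 7) and 26.3 ± 9.19 FPKM (SD, n = 4), a log2 difference of -4.51 ± 0.28 (SE). The value added before taking logs makes this fold too small for so low a level, and with voom on the reads it was -5.44 ± 0.49 (SE). Reads on the gene numbered 8 to 55 per diabetic wound (median 32) and 886 to 1842 per non-diabetic wound, so the diabetic values are the less precise. The plot of both genes by wound shows the contrast between steep and flat lines.

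**Figure D2:**
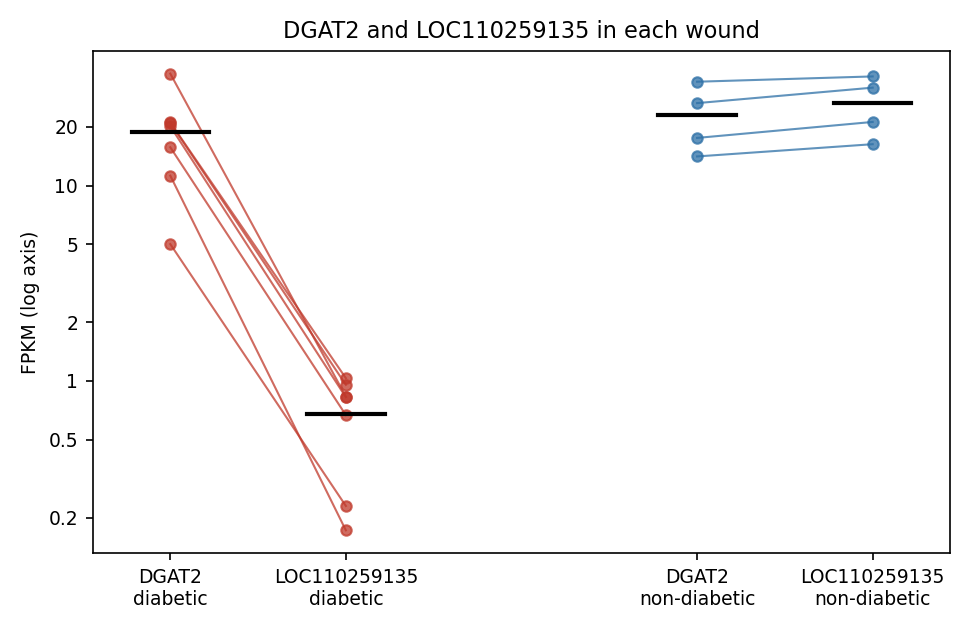
DGAT2 and LOC110259135 in FPKM on a log axis, with 1 line per wound joining both genes of that wound and black bars at the group means. The 7 diabetic lines fall from 5.02 to 37.4 FPKM at DGAT2 to between 0.172 and 1.03 FPKM at LOC110259135, and the 4 non-diabetic lines stay between 14.1 and 36.2 FPKM.

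Within each wound the ratio of the copies was steadier than either level. Of the reads counted on both genes, LOC110259135 took 54.5% (95% Wilson interval 52.0 to 56.9), 54.3% (52.4 to 56.2), 51.3% (49.7 to 53.0) and 53.4% (51.0 to 55.7) in non-diabetic replicates 1 to 4. In diabetic replicates 1 to 7 its share was 4.33% (2.50 to 7.42), 3.91% (3.01 to 5.06), 4.32% (3.34 to 5.59), 1.50% (0.760 to 2.92), 4.05% (2.88 to 5.66), 2.16% (1.53 to 3.03) and 4.64% (3.41 to 6.28). No diabetic wound came near an even split, and every non-diabetic wound was close to one. The intervals cover counting error only, since reads are not independent molecules. Mean shares were 53.4% ± 1.44 (SD, n = 4) and 3.56% ± 1.22 (SD, n = 7). Pooled over wounds, LOC110259135 had 5131 of 9671 reads in the non-diabetic minipig (53.1%, 52.1 to 54.0) and 232 of 6580 reads in the diabetic minipig (3.53%, 3.11 to 4.00). Per length the LOC110259135 level was 1.16 ± 0.0656 times the DGAT2 level (SD, n = 4), above 1 in 4 of 4 non-diabetic wounds, and 0.0374 ± 0.0131 times that level in the diabetic wounds (SD, n = 7). By letter, the shares were 3.91% to 4.33% in L and 1.50% to 4.64% in R wounds of the diabetic minipig, which overlap, and 54.3% to 54.5% and 51.3% to 53.4% in those of the other, where both L wounds lay above both R wounds. Diabetic replicates 4 and 6 had the lowest shares, and their intervals lay below those of replicates 2, 3 and 7 except that replicate 6 reached 3.03% where the interval of replicate 2 began at 3.01%.

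**Figure D3:**
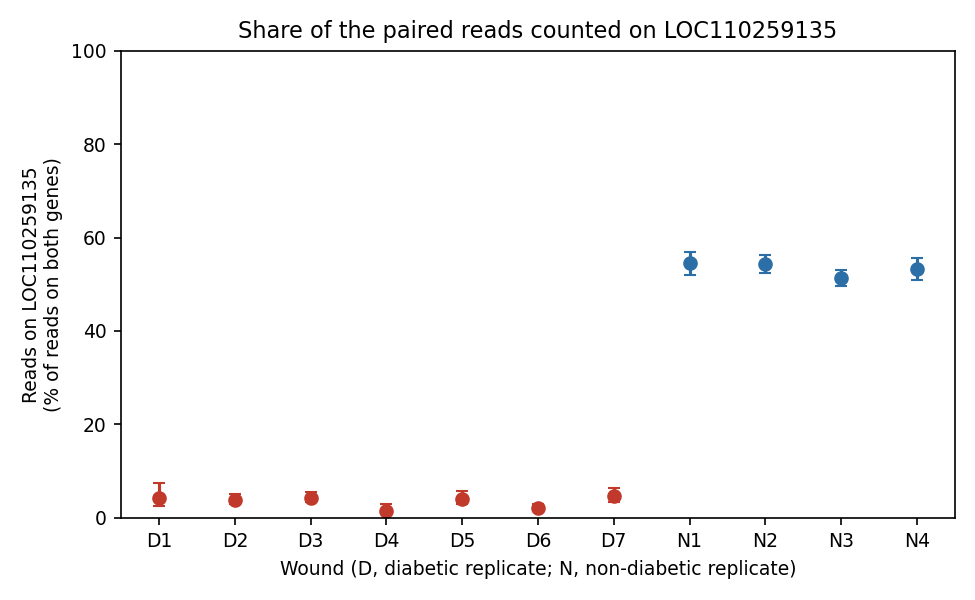
Reads on LOC110259135 as a percentage of the reads on DGAT2 and LOC110259135 together, in each of the 11 wounds, with 95% Wilson intervals as bars. The diabetic wounds D1 to D7 lie between 1.50% and 4.64%, and the non-diabetic wounds N1 to N4 between 51.3% and 54.5%.

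Added together, the copies gave 5.25 to 38.2 FPKM in the diabetic wounds (19.5 ± 10.4, SD, n = 7) and 30.4 to 70.1 FPKM in the non-diabetic wounds (49.3 ± 18.1, SD, n = 4). The groups overlapped only through diabetic replicate 6, at 38.2 FPKM. The log2 difference of the sum was -1.44, beside -0.40 for DGAT2 alone and -4.51 for LOC110259135 alone.

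The copies varied together from wound to wound once the group means were removed. Over the 11 wounds the deviations of log2(FPKM + 0.5) had a Pearson r of 0.83 and a Spearman rho of 0.86. Without diabetic replicates 1 and 6, the farthest from the median in DGAT2, r was 0.97. Among the 7 diabetic wounds alone r was 0.80 and rho 0.86. Both values of a pair come from a single library, and the shared windows let reads of one gene be counted on the other, so these figures only describe the counts.

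The other members were at or near the limit of detection. MOGAT1 (chr15:124568449-124607925) had 0 reads in all 11 wounds, where a count of 0 allows up to 3 reads, or 0.0105 to 0.0182 FPKM depending on depth. AWAT2 (chrX:56101635-56108243) had 10 reads in diabetic replicate 1, 3 reads in diabetic replicate 3 and 0 in the other wounds. MOGAT2 (chr9:9937654-9951679), which lies 80.5 kb before DGAT2 on the same strand, had 23, 51, 267 and 33 reads in non-diabetic replicates 1 to 4. Among the diabetic wounds it had 5 reads in replicate 2 and 0 in the others. In FPKM the non-diabetic wounds held 0.234, 0.466, 2.23 and 0.246, and diabetic replicate 2 held 0.0325. The MOGAT2 groups did not overlap, as in 1.48% of the genes under the filter that were lower in every diabetic wound, and non-diabetic replicate 3 had most of the reads. Its log2 difference of -1.12 on the log2(FPKM + 0.5) scale, -0.68 without that wound, understates a change from so low a level. Of the 5 members, 4 had a read in some wound and 2, DGAT2 and LOC110259135, passed the filter of 0.5 FPKM in at least 4 libraries. In the non-diabetic wounds the levels thus ran in the order LOC110259135, DGAT2, MOGAT2 and then AWAT2 and MOGAT1, both at 0, with the first pair within each other's spread. In the diabetic wounds DGAT2 came first and LOC110259135 next, ahead of AWAT2, MOGAT2 and MOGAT1, which were all near 0.

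Other relatives outside the members were as sparse. LOC110255553, annotated as MOGAT2-like at chr9:9997951-10006977, had 4, 4, 7 and 0 reads in the non-diabetic wounds and 2 reads in diabetic replicate 3 alone (two-sided exact permutation p = 0.0242). AWAT1, a wax ester synthase like AWAT2, had 0 reads throughout, and DGAT2L6, another family member, had 6 reads in diabetic replicate 6. LOC106508543, annotated as MOGAT3-like on chromosome 3, had 2 to 14 reads in the diabetic and 0 to 2 in the non-diabetic wounds. It was named after its values were seen. DGAT1, the unrelated enzyme of the same step, had 6.85 ± 1.61 FPKM (SD, n = 7) and 6.08 ± 1.23 FPKM (SD, n = 4) and did not pass the test (limma, log2 difference 0.15, adjusted p = 0.729). On this per-length scale DGAT1 was below DGAT2 in mean level in both minipigs.

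Near DGAT2 on chromosome 9, the genes beside MOGAT2 were also lower in the diabetic wounds, while most others in the window were not called. The window of 500 kb on either side of DGAT2 holds 24 annotated genes, of which 22 are not members. Limma tested 10 of them and called 1 higher and 0 lower, against 3.00% of all 13956 genes tested. Without adjustment of p, at 0.05 and the same size limit, 2 were higher and 1 lower (7.13% of all genes in either direction), and voom on the reads called 1 and 0. RPS3, a protein of the small ribosomal subunit, was the gene called, at 586 ± 30.8 FPKM (SD, n = 7) against 412 ± 29.5 FPKM (SD, n = 4), a log2 difference of 0.51 (adjusted p = 0.00526). Its groups did not overlap, as in 2.69% of all genes past the filter that were higher in every diabetic wound. That value sits at the size limit of 0.5, and it dropped to as little as 0.48 without diabetic replicate 1 or 6 or non-diabetic replicate 3 or 4, which ended the call although the adjusted p stayed at or below 0.0277.

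Another 8 neighbours had reads but were under the filter. A two-sided exact permutation test that used each of the 330 splits of the wounds, whose smallest possible p is 0.00303, gave a p under 0.05 for 3 of these, all lower in the diabetic wounds. Among all 9585 genes under the filter with a read, 7.10% were lower by that test, and 1.48% were lower with groups that did not overlap. MAP6, which encodes a protein that stabilizes microtubules, had 1 to 7 reads in the diabetic and 43 to 183 reads in the non-diabetic wounds (exact permutation p = 0.00303). LOC106504812, a long non-coding RNA gene, had 7 reads in diabetic replicate 6, 0 in the other diabetic wounds and 17 to 127 in the non-diabetic wounds (exact permutation p = 0.00303). LOC110255553 was the third. MAP6 lies on the minus strand with its 5′ end at base 9937651, head to head with MOGAT2, which starts at 9937654 on the plus strand, and LOC106504812 overlaps MOGAT2 on the opposite strand. The libraries keep strand, but whether the counting used it is not given in the sources used here, so reads of MOGAT2 and LOC106504812 may not be separable.

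The genes on both sides closest to DGAT2 that passed the filter did not pass the test. UVRAG, a regulator of autophagy that begins 22.7 kb after DGAT2, had 3.25 ± 0.374 FPKM (SD, n = 7) and 2.73 ± 0.137 FPKM (SD, n = 4), with an adjusted p of 0.260 by limma. SERPINH1, the collagen chaperone HSP47, had 790 and 747 FPKM (limma adjusted p = 0.961). ARRB1, GDPD5, THAP12, WNT11 and 3 uncharacterized genes were not called either, with adjusted p from 0.0698 to 0.923 by limma. The lowest of these was LOC102161477, a non-coding RNA gene at 0.358 and 0.761 FPKM (log2 difference -0.57), which was called lower with array weights and without diabetic replicate 6. The highest difference was that of LOC106504810, also non-coding, at 1.80 and 0.838 FPKM (log2 difference 0.72, limma adjusted p = 0.197), which was called higher with array weights and without diabetic replicate 1. The other genes under the filter, KLHL35, MIR326, LOC102160761, LOC110255401 and LOC102162516, had exact permutation p from 0.0545 to 1, and 4 neighbours had no reads. The plot of the window shows the low values gathered around MOGAT2.

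**Figure D4:**
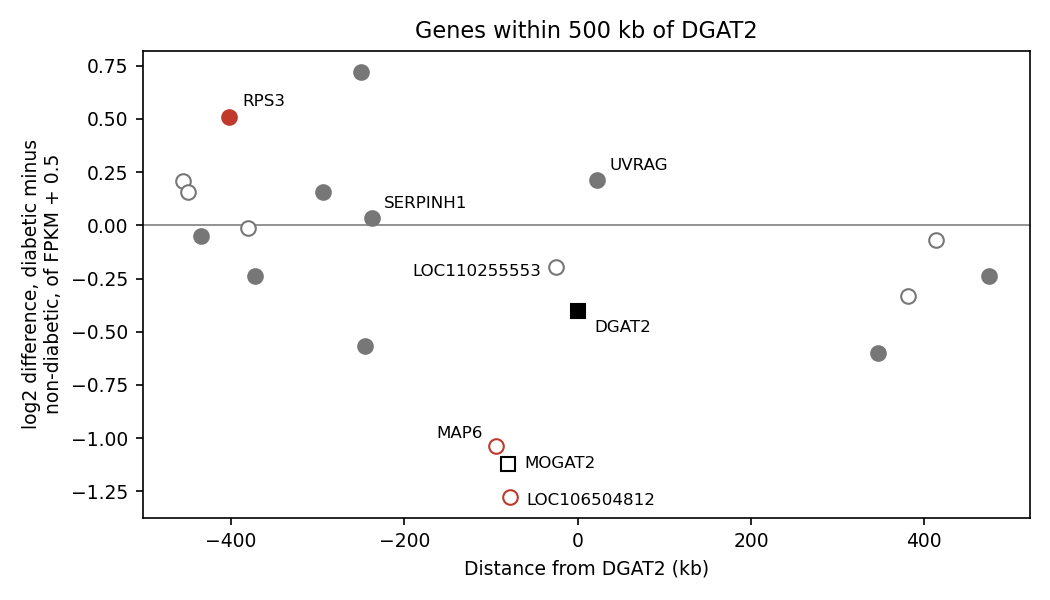
Log2 difference, diabetic minus non-diabetic, of FPKM + 0.5 for each gene with reads, against its distance from DGAT2 in kb (negative, before DGAT2). Squares are members, filled symbols passed the filter, open symbols did not, and red marks non-members whose groups do not overlap, with MAP6 and LOC106504812 below -1 beside MOGAT2 at -1.12 and RPS3 at 0.51.

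Other genes of the pathway were compared by lists of genes with known roles, which were drawn up with earlier results of these data known, so their shares of calls are a description. Across 11 lists, 155 genes were tested and 11 were called higher and 12 lower (14.8%), against 3.00% of all genes (1.35% higher and 1.66% lower). The lower calls include LEP, which passed the filter only through the non-diabetic wounds. In the list for the synthesis of triglyceride and other glycerolipids, 1 of 19 tested genes was called. It was PLPP2, a lipid phosphatase, at 3.80 against 2.37 FPKM in the means (log2 difference 0.59, limma adjusted p = 0.0417). Its call was lost without any 1 of diabetic replicates 1, 2, 3, 5 and 7 or non-diabetic replicates 1, 3 and 4, with an adjusted p of up to 0.130, and without non-diabetic replicate 2 the list had 2 calls. AGPAT1, which makes phosphatidic acid, had 41.5 and 49.9 FPKM and was not called. It was the most abundant gene of the list by the mean over all 11 wounds, the measure used for every list. GPAM, the mitochondrial enzyme of the first step, had 1.44 and 1.40 FPKM (limma adjusted p = 0.966). The median log2 difference of the list was 0.15, beside 0.01 for all genes tested.

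The list of other acyltransferases, headed DGAT2 and MBOAT families, also holds LPCAT1, LPCAT2 and LPCAT4. Limma called 0 of its 13 tested genes, with 0 at an unadjusted p under 0.05 and the size limit. Voom called 0 too, and the median log2 difference was -0.14. AWAT1 and DGAT2L6 were under the filter and not tested, so the count does not cover them. MBOAT7, which remodels phosphatidylinositol, was the most abundant at 23.4 and 18.5 FPKM. The wax ester, sterol ester and sebaceous gland list was alike, with 0 of 9 by limma, 0 at an unadjusted p and 0 by voom, and a median of -0.10. CRAT, a carnitine acetyltransferase, was its most abundant gene at 16.6 and 12.6 FPKM, and FAR2, which makes fatty alcohols, had 1.76 and 2.19 FPKM (limma adjusted p = 0.315).

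In the list of genes that make or activate fatty acids, 7 of 25 tested genes fell (28%) and 0 rose, with 13 lower and 0 higher at an unadjusted p under 0.05 and the size limit, 7 and 0 by voom, and a median log2 difference of -0.74. THRSP, a regulator of lipogenesis, had a mean of 1.98 FPKM (range 0 to 6.67) in the diabetic and 69.3 FPKM (17.1 to 128) in the non-diabetic wounds, a log2 difference of -4.94 (limma adjusted p = 0.00285). SCD, the desaturase that makes oleate and a supplier of substrate to DGAT2, had 12.2 FPKM (7.89 to 19.1) against 137 FPKM (47.3 to 346), a log2 difference of -3.04 (adjusted p = 0.00459). Both had groups that did not overlap. ACSL3, which activates fatty acids, fell by 0.74 on the log2 scale (limma adjusted p = 0.00103). ELOVL6 and ELOVL5, both elongases, the desaturase FADS1 and ACACA, which makes malonyl-CoA, also passed, with limma adjusted p for ELOVL6 of 0.0332 (log2 difference -1.99) and for ACACA of 0.0289 (-0.96). FASN, the fatty acid synthase, had 41.9 ± 13.3 FPKM (SD, n = 7) and 102 ± 98.0 FPKM (SD, n = 4) and was not called (limma adjusted p = 0.382). It was the most abundant of the list over all 11 wounds, but SCD had the higher mean in the non-diabetic wounds. The count of 7 rests on single wounds: it was 3 without non-diabetic replicate 1, 4 without non-diabetic replicate 2 or diabetic replicate 5, and 3 without both diabetic replicate 4 and non-diabetic replicate 1. ELOVL6 was lost without diabetic replicate 3, 5 or 7 or non-diabetic replicate 1 or 2 (adjusted p by limma of up to 0.0744), ACACA without diabetic replicate 5, 6 or 7 or non-diabetic replicate 1 or 2 (up to 0.0645), and ELOVL5 without diabetic replicate 3 or 5 or non-diabetic replicate 1 or 2 (up to 0.0652). FADS1 was lost without non-diabetic replicate 1, 3 or 4 (up to 0.0819), and THRSP, SCD and ACSL3 kept their calls in all 11 fits that left out 1 wound.

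Fatty acid uptake had calls both ways, 4 higher and 2 lower of 12 tested (50%), and the count was the same without any 1 wound. ANGPTL4, a secreted inhibitor of lipoprotein lipase, had 120 ± 26.8 FPKM (SD, n = 7) against 20.0 ± 7.21 FPKM (SD, n = 4), a log2 difference of 2.58 (limma adjusted p = 0.000338). GPIHBP1, which holds that lipase on capillaries, had 38.8 against 10.5 FPKM (1.74, adjusted p = 0.0116). LPL, the lipase itself, had 19.3 against 46.7 FPKM (-1.24, adjusted p = 0.00229), and FABP3, a fatty acid carrier, 19.0 against 65.1 FPKM (-1.69, adjusted p = 0.00423). CD36, a fatty acid receptor, and SLC27A3, an acyl-CoA synthetase, were the other calls, both higher (adjusted p = 0.00523 and 0.000562). FABP5, the carrier of keratinocytes, was the most abundant at 852 and 804 FPKM and was not called.

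Of the genes that coat or grow lipid droplets, 1 of 13 was called. PLIN2, a droplet coat protein of most cell types, had 48.2 ± 6.46 FPKM (SD, n = 7) against 16.0 ± 3.95 FPKM (SD, n = 4), a log2 difference of 1.58, and it was called in all 11 fits that left out 1 wound, with an adjusted p by limma of at most 0.00233. AUP1 was the most abundant, at 48.3 and 41.0 FPKM. Of the genes that break droplets down, 1 of 13 was called, PNPLA3, a droplet lipase that is raised by feeding, at 0.795 against 3.58 FPKM (-1.66, limma adjusted p = 0.00345). FABP4, the most abundant of that list and of the adipocyte list, had 403 and 210.0 FPKM and was not called, except with array weights and without diabetic replicate 1. Without diabetic replicate 6 the list had 2 lower calls. At an unadjusted p under 0.05 and the size limit, the counts higher and lower were 3 and 0 for triglyceride synthesis, 2 and 0 for droplet coats, 1 and 2 for droplet breakdown, 4 and 2 for fatty acid uptake and 1 and 0 for the keratinocyte list, of which voom called 0 in the keratinocyte list. The plot of the lists shows all tested genes.

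**Figure D5:**
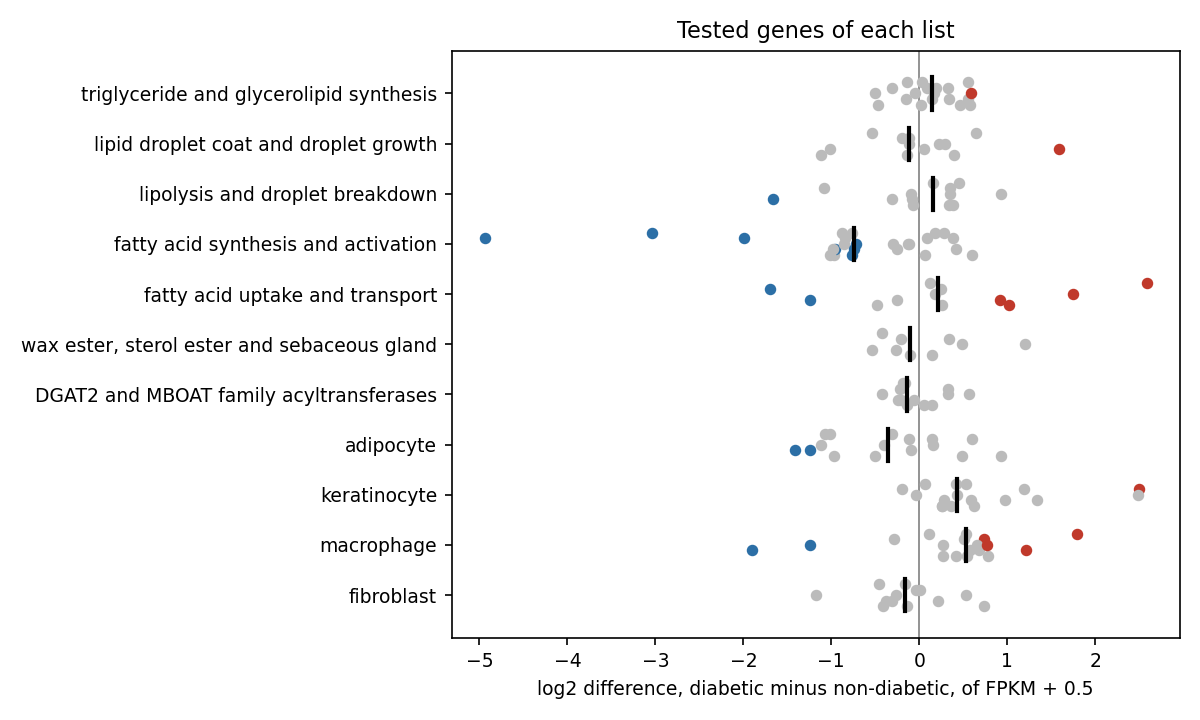
Log2 difference, diabetic minus non-diabetic, of FPKM + 0.5 for every tested gene of the 11 lists, with the list median as a black bar and genes called higher in red, lower in blue and not called in grey. The fatty acid synthesis list has its median at -0.74 and its lowest genes at -4.94 and -3.04, and the triglyceride synthesis list lies between -0.50 and 0.59.

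Summed levels of cell type markers differed between wounds, and in a bulk sample fewer cells of a type and less RNA per cell cannot be told apart. All 4 adipocyte markers (ADIPOQ, LEP, PLIN1 and CIDEC) had reads. Their sum was 15.8 to 194 FPKM in the diabetic and 87.7 to 209 FPKM in the non-diabetic wounds. It was lowest in diabetic replicate 1, where DGAT2 was also lowest. Each of the 4 had a negative log2 difference, but the adipocyte list was mixed, with 11 tested genes lower and 5 higher. Among the higher ones were FABP4 (0.92, limma adjusted p = 0.0607) and CFD (0.60, limma adjusted p = 0.184). In the adipocyte list limma called 2 of 16 lower and 0 higher, with 2 and 2 at an unadjusted p and 2 and 0 by voom. These were LPL and LEP, the hormone leptin, at -1.41 on the log2 scale (limma adjusted p = 0.0126). LEP no longer passed the filter on low values when any non-diabetic wound was left out. The sum of the keratinocyte markers KRT5, KRT1 and KRT10 was 32.7 to 6012 FPKM and 242 to 2192 FPKM, and KRT14 was not matched in the table. Diabetic replicate 4 and non-diabetic replicate 1 had the lowest sums and stood apart from the other wounds on the first principal component. In the keratinocyte list 1 of 17 was called, KRT15, at 15.5 against 3.35 FPKM (2.50, limma adjusted p = 0.0388), a call kept only without diabetic replicate 3 or 4 or non-diabetic replicate 3 among the fits that left out 1 wound.

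Macrophage markers (CD68, CD163, CSF1R and C1QA) summed to 309 to 615 FPKM in the diabetic and 173 to 342 FPKM in the non-diabetic wounds. In the macrophage list 4 of 18 were called higher, MARCO, ITGAM, CD14 and MRC1, and 2 lower, SPP1 and LPL (33.3%), with 10 higher and 2 lower at an unadjusted p under 0.05 and the size limit, and 4 and 2 by voom. MARCO, a scavenger receptor, had 3.77 against 0.659 FPKM (1.80 on the log2 scale), ITGAM, an integrin chain, 3.72 against 1.26 FPKM (1.22), and SPP1, osteopontin, 33.2 against 123 FPKM (-1.90). CD14 kept its call only without diabetic replicate 1 or 2 among the 11 fits that left out 1 wound, with an adjusted p by limma of up to 0.139, and SPP1 was lost without non-diabetic replicate 2 or 4, with an adjusted p of up to 0.0578. Fibroblast markers (COL1A1, COL1A2, DCN and LUM) summed to 11848 to 35977 FPKM and 22411 to 43757 FPKM, and 0 of 13 fibroblast genes were called by limma or voom, with 1 lower at an unadjusted p. Of the sebaceous markers, AWAT1 was at 0, and ELOVL3 (means 0.0997 and 0.0610 FPKM) and MC5R (0.0685 and 0.126 FPKM) were near 0. The sum of the 4, 1.36 to 2.61 FPKM and 2.13 to 2.64 FPKM, was therefore almost all FAR2. LYZ, KRT5 and COL3A1, the most abundant genes of their lists, were not called.

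DGAT2 was also set beside the marker sums within groups. Its deviations had r = 0.80 and rho = 0.54 with the adipocyte sum over 11 wounds, but r = 0.28 without diabetic replicates 1 and 6, so that relation rests on those wounds. With the keratinocyte sum r was 0.44 and rho 0.75, and r was 0.67 without diabetic replicate 4 and non-diabetic replicate 1. The values for macrophage (r = -0.25, rho = -0.40), fibroblast (r = 0.24, rho = 0.10) and sebaceous markers (r = -0.40, rho = -0.20) were smaller or of the opposite sign. Without the wounds farthest from the median of each sum, r was 0.01 for macrophage, -0.09 for fibroblast and 0.19 for sebaceous markers. The sebaceous sum was almost all FAR2. Both sides of each pair share a library. The part of the cell mix in the levels of DGAT2 and LOC110259135 was not tested, and the split between the copies was 1.50% in the diabetic wound with the lowest keratinocyte sum and 2.16% in the one with the highest.

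Among the 13955 other genes that passed the filter, those most like DGAT2 across the 11 wounds, as deviations from group means, were ZNF282 (r = 0.96), AGRN (0.93), SIDT2 (0.93), PIK3C2B (0.93) and NOTCH3 (0.92). Most like LOC110259135 were ARHGAP10 (r = 0.95), FAM46C (0.92), KAT5 (0.90), NRGN (0.90) and MIR9788-1 (0.90). None of these 10 genes was called between the minipigs by limma. Each r is among the highest of 13955 over 11 wounds, and how high such picks reach by chance was not tested. MIR9788-1 rests on 7 to 32 reads per diabetic and 3 to 23 reads per non-diabetic wound. LOC110259135 ranked 68th for DGAT2, and DGAT2 ranked 30th for LOC110259135. With ranks in place of values the copies moved up to places 15 and 6, and 1 and 2 of the 5 genes stayed among the top 5.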

How the data were processed

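RNA from 7 diabetic and 4 non-diabetic wounds was made into directional poly(A) libraries by Novogene for the authors. Per the labels and the methods, reads were trimmed with fastp, mapped to Sscrofa11.1 with HISAT2 2.2.1, assembled with StringTie 2.2.3 and counted with featureCounts 2.0.6. The deposited values are FPKM, made by the authors with gene length and library size by a formula not given in the sources used here. Multiplying by length recovered whole reads for 100% of values (within 0.05 reads), with 28314785 to 40168372 reads on genes per wound.

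The filter kept the 13956 of 30376 genes that reached 0.5 FPKM in 4 or more libraries. Limma 3.58.1 (eBayes with trend) compared them on log2(FPKM + 0.5), with Benjamini-Hochberg adjustment over all of them. A call needed an adjusted p below 0.05 together with a log2 difference of more than 0.5 in either direction. The script was tested on simulated data. Genes under the filter had a two-sided exact permutation test. Exons and scaffold were compared with Biopython 1.88 and minimap2 2.31. The text names the 5 members, up to 4 called genes and the most abundant gene of each list, further called genes of the lists where they decide a count, 6 relatives fixed by name, the neighbours with reads and the 5 genes most like each copy. Members and lists were chosen with earlier results of these data known. Alternatives were other pseudocounts, filters and normalization, voom on the reads, array weights, a replicate block, the letter as a covariate, and wounds left out.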

Additional observations from a re-analysis of the deposited data

Results flagged for a closer look

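Each named gene and summed measure was checked in both groups for a wound far from the others, and 18 of 132 groups had one. Chance flags about 1 in 20 groups of normally distributed values, a rate that does not hold for groups in which nearly all wounds are at 0. MOGAT2 had 0.0325 FPKM (5 reads) in diabetic replicate 2 with 0 in the other 6, and 2.23 FPKM (267 reads) in non-diabetic replicate 3, where the next wound had 0.466. AWAT2 had 0.0588 FPKM (10 reads) in diabetic replicate 1.

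Non-diabetic replicate 3 was also the highest of its group in several lipid genes and others, by a wide margin in SCD, ELOVL6 and KRT15 and by little in FAR2, where the other 3 wounds lay close together. SCD had 345.6 FPKM there and 90.4 in the next wound, ELOVL6 52.8 and 13.2, LPL 64.7 and 41.7, FAR2 2.33 and 2.15, and KRT15 9.97 and 1.81. Diabetic replicate 6, highest in DGAT2, was high in THRSP (6.67 FPKM), FASN (68.9), WNT11 (1.61), DGAT2L6 (0.141, 6 reads) and LOC106504812 (0.154, 7 reads). In diabetic replicate 1, lowest in DGAT2, PLIN2 was at 61.2 FPKM and the next wound at 49.6. MARCO had 0.775 FPKM and KAT5 2.81 FPKM in non-diabetic replicate 4. In diabetic replicate 3, MIR326 had 0.559 FPKM and LOC110255553 0.0355 FPKM, 2 reads each. Neither DGAT2, LOC110259135 nor the share between them had such a wound in either group.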

How the results depend on the processing

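The split between the copies kept its direction in every setting. The log2 difference of LOC110259135 (-4.51) was -5.20 with a pseudocount of 0.1, -3.99 with 1 and -5.44 with voom, and -4.71 to -4.34 without single wounds. The ratio of the copies (-4.11) was -4.78, -3.61 and -5.02 with those pseudocounts and the recovered reads, and -4.27 to -3.95 without single wounds. Without single wounds, DGAT2 ranged from -0.61 to -0.14, MOGAT2 from -1.31 to -0.68 and AWAT2 from 0.01 to 0.03. With a pseudocount of 0.1 and all wounds, MOGAT2 was at -2.58 and AWAT2 at 0.13. Calls over all genes (188 higher, 231 lower) were 406 and 416 with array weights, 106 and 81 without diabetic replicate 4 and non-diabetic replicate 1, and 104 to 236 and 75 to 247 without single wounds. Non-diabetic replicates 1, 3 and 4 each moved both counts by over 1.5 times (106 and 75, 104 and 95, 119 and 107), and replicate 2 the lower count (122). Calls in the lists (11 and 12) were 19 higher with array weights, 7 lower without both wounds or without non-diabetic replicate 1 or 2, and 8 to 10 and 7 to 14 without single wounds. Neighbours (1 and 0) had 0 higher by quantile normalization, 2 lower with no filter, 1 lower with array weights, and 0 to 1 each without single wounds (0 higher without diabetic replicate 6 or non-diabetic replicate 3 or 4, 1 lower without diabetic replicate 6). Spearman rho kept 1 and 2 of the 5 genes most alike. The numbers of the replicates did not pair the wounds (correlations -0.27, 0.22, 0.07 and -0.48). A replicate block left 11 and 5 calls over all genes, 0 and 0 in the lists and 0 higher among the neighbours. No called gene named here changed direction in any setting. The cause of these moves was not tested. With 8 to 55 reads per diabetic wound, differences among the diabetic values of LOC110259135 are limited by counting error.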
